A study of Mus musculus with 21 samples.

Results

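The 10 macrophage genes followed here are Lyz2, Cd68, Mrc1, C1qa, C1qb, C1qc, Apoe, Msr1, Mpeg1 and Cd14, out of 24421 gene symbols in the RNA-seq tables of primary mouse B cell precursors. They were taken by symbol, with the RNA levels of these same libraries already known and with no threshold, so their differences between conditions are described and not tested. All 10 had a row in the count table and in the FPKM table, and all 10 had enough counts to enter the fit together with 12786 genes in all. The cells came from the bone marrow of 53BP1-/- C57BL/6 mice, so every group lacks the DNA repair factor 53BP1, and they were cultured with 10 ng/ml of interleukin-7 (IL-7), the cytokine that B cell precursors need to grow. They were transduced with the retroviral vector MIGR1 carrying nothing further (empty vector, EV), BCR-ABL1, the fusion kinase of a B cell leukemia, or C-MYC, a transcription factor that drives growth. Poly(A) RNA of 5000000 cells per library was sequenced between days 7 and 9 after transduction, with 2 libraries for each of the 3 conditions, which makes 6 of the 21 samples of the series. The RNA is that of the bulk culture after removal of dead cells, and the methods for these libraries name no sort for B cells or for cells that carry the vector.

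Macrophages are phagocytes that engulf microbes, dying cells and lipoproteins and break them down in lysosomes. Several of the genes encode proteins of that pathway, from surface receptors (Cd14, Msr1, Mrc1) to lysosomal and phagosomal proteins (Lyz2, Cd68, Mpeg1), while C1q and apolipoprotein E are secreted. Bone marrow holds macrophages, and none of these genes is a classical gene of the B lineage.

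The libraries held 20687092 to 24095955 counts on genes. Myc had 27450 to 37920 counts in C-MYC and 3277 to 8381 in the other conditions, in the order that the labels call for. Trp53bp1 had 342 to 723 counts in all libraries, and with 1 genotype it distinguishes no groups. The 12 B cell precursor genes looked at, such as Rag1 and Il7r, summed to 5685 to 6462 CPM (counts scaled to a common library size) in EV, against 5846 to 6494 with BCR-ABL1 and 3306 to 3927 with C-MYC. The 10 macrophage genes together reached 1125 and 1812 CPM in EV, against 174 and 232 with BCR-ABL1 and 345 and 613 with C-MYC. In a bulk culture, fewer cells of a type and less RNA per cell cannot be told apart. Levels below are CPM with library sizes scaled by the TMM method, given in the order replicate 1 and replicate 2, and differences are log2 fold changes with their standard errors (SE) from edgeR.

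**Figure D1:**
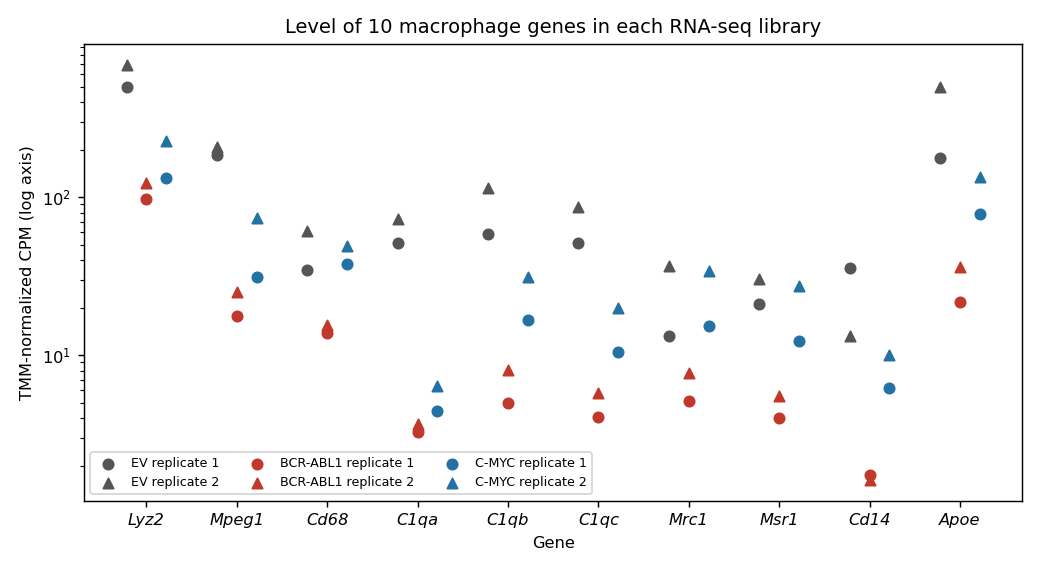
TMM-normalized CPM (log axis) of each of the 10 genes in the 6 libraries, with the condition as colour and the replicate as symbol. Every gene was lowest in the BCR-ABL1 libraries, and the C-MYC libraries lay between BCR-ABL1 and EV for 7 genes and overlapped with EV for Cd68, Mrc1 and Msr1.

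Lyz2, which encodes the lysozyme that cuts bacterial cell walls and is made by macrophages and neutrophils, had the highest level of the genes per length of exon. It stood at 496 and 690 CPM in EV, against 97.4 and 123 with BCR-ABL1 and 132 and 226 with C-MYC. The 3 conditions did not overlap, with EV the highest and BCR-ABL1 the lowest. BCR-ABL1 differed from C-MYC by -0.70 (SE 0.26) on the log2 scale, which shrank to as little as -0.26 with 1 library left out. The log2 fold change was -2.43 (SE 0.28) in BCR-ABL1 against EV, or 5.39-fold lower, and -1.73 (SE 0.27) in C-MYC against EV. Lyz1, a near copy that could share reads with Lyz2, had 0 to 8 counts in each library.

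Mpeg1 encodes perforin-2, a pore-forming protein of phagosomes. Its level was 186 and 209 CPM in EV, against 17.8 and 25.3 with BCR-ABL1 and 31.4 and 74.3 with C-MYC. The EV libraries were close to each other, while the C-MYC libraries lay 2.36 times apart. The log2 fold change was -3.19 (SE 0.38) in BCR-ABL1 against EV and -1.90 (SE 0.36) in C-MYC against EV. Without C-MYC replicate 2 the latter was -2.65, and the difference of BCR-ABL1 from C-MYC went from -1.29 to -0.54.

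Cd68, a heavily glycosylated protein of late endosomes and lysosomes, separated the oncogenes differently. It stood at 34.8 and 61.0 CPM in EV, against 13.8 and 15.6 with BCR-ABL1 and 37.8 and 49.0 with C-MYC. Both C-MYC libraries lay inside the range of EV, and both BCR-ABL1 libraries lay below it. The log2 fold change was -1.70 (SE 0.27) in BCR-ABL1 against EV and -0.14 (SE 0.26) in C-MYC against EV.

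C1qa, C1qb and C1qc encode the 3 chains of C1q, the protein that recognises antibody complexes and dying cells and starts the classical complement pathway. The genes are neighbours on the minus strand of chromosome 4 (GRCm38), with C1qb at 136880129 to 136886187, C1qc at 136889804 to 136893065 and C1qa at 136895917 to 136898803. The 3 genes lie within 18675 bases, with gaps of 3616 and 2851 bases. Of the 10 genes, 7 had a promoter in the RefSeq promoter table of GRCm38.p6, and C1qa, Msr1 and Cd14 had no entry. Gene positions are from GENCODE, and the RefSeq starts of C1qc and Mrc1 lie inside the genes as GENCODE places them. The 250 bases before the RefSeq start of C1qb and C1qc are shown because these neighbours were both lower in both oncogene cultures, and those of Mrc1 because its libraries overlapped between C-MYC and EV. They read 5′ to 3′ on the gene's strand, from chr4:136886201-136886450 (minus strand), chr4:136892915-136893164 (minus strand) and chr2:14229164-14229413 (plus strand), with each GAGGAA, on either strand, in capitals.
C1qb: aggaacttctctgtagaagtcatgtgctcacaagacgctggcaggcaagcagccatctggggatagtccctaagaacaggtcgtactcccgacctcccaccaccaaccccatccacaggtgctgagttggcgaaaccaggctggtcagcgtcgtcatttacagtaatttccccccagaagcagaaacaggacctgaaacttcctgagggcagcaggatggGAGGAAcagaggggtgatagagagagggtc
C1qc: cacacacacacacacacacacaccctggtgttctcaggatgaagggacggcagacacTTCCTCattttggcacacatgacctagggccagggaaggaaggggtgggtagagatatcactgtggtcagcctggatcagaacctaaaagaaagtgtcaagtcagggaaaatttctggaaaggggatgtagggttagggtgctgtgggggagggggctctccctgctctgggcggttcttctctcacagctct
Mrc1: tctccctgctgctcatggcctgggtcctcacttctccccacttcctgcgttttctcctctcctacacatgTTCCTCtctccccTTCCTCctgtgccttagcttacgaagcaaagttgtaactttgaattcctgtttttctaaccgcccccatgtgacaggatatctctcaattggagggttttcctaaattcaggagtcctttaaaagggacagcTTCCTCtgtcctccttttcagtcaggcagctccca
GAGGAA holds the purine-rich core that the myeloid factor PU.1 (Spi1) and its relatives recognise, and it was present in the windows of C1qb, C1qc, Mrc1, Apoe and Cd68 and not in those of Lyz2 and Mpeg1. Over windows of 300 bases (250 before to 50 after the start), 28.3% of 32851 RefSeq promoters hold it on either strand. The C/EBP-type motif TTGCNNAA, found in 10.8% of all promoters, and the AP-1-type motif TGANTCA, found in 7.81%, were present for Cd68 alone of the 7 genes, and the E-box CACGTG, found in 7.15%, for none. A match is a string in a window and does not show that a factor binds there.

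C1qa stood at 51.6 and 72.8 CPM in EV, against 3.27 and 3.66 with BCR-ABL1 and 4.46 and 6.38 with C-MYC. C1qb stood at 58.9 and 114 CPM in EV, against 4.98 and 8.06 with BCR-ABL1 and 16.7 and 31.3 with C-MYC. C1qc stood at 51.2 and 86.9 CPM in EV, against 4.08 and 5.78 with BCR-ABL1 and 10.4 and 19.98 with C-MYC. For each chain the 3 conditions did not overlap, with BCR-ABL1 lowest. For C1qa the difference of BCR-ABL1 from C-MYC was -0.64 (SE 0.26), which shrank to as little as -0.36 with 1 library left out. In BCR-ABL1 against EV the log2 fold changes lay close together, at -4.16 (SE 0.26) for C1qa, -3.73 (SE 0.44) for C1qb and -3.80 (SE 0.39) for C1qc. In C-MYC against EV they were further apart, at -3.52 (SE 0.25) for C1qa, -1.85 (SE 0.40) for C1qb and -2.18 (SE 0.36) for C1qc.

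The balance between the chains can be read within a library, where depth and scaling cancel. C1qa made up 31.9% (95% Wilson interval 30.4 to 33.5) and 26.6% (25.5 to 27.7) of the counts of the 3 chains in EV. It made up 26.5% (21.5 to 32.2) and 20.9% (17.3 to 25.04) in BCR-ABL1, and 14.1% (11.7 to 16.9) and 11.1% (9.45 to 12.9) in C-MYC. The C-MYC libraries lay below those of the other conditions, and EV replicate 2 and BCR-ABL1 replicate 1 were level within counting error. The C1qb share was 36.4% and 41.7% in EV, against 40.4% and 46.1% with BCR-ABL1 and 52.9% and 54.3% with C-MYC, while C1qc kept 31.7% to 34.6% in all libraries. The intervals cover counting error only, and the BCR-ABL1 shares rest on 260 and 421 counts. Shares of counts depend on transcript length and are compared between libraries, not between genes.

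**Figure D2:**
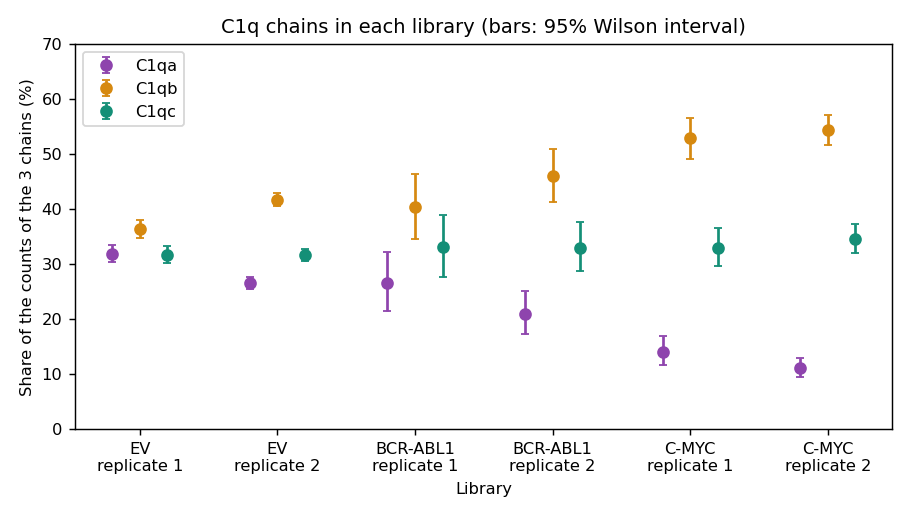
Share of the counts of the 3 C1q chains taken by C1qa, C1qb and C1qc in each library, in percent, with 95% Wilson intervals for counting error. C1qa took 11.1% and 14.1% in the C-MYC libraries and 20.9% to 31.9% in the others.

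Apoe encodes apolipoprotein E, which carries lipids and is a ligand of the LDL receptor family. It stood at 177 and 497 CPM in EV, against 21.7 and 36.0 with BCR-ABL1 and 78.6 and 134 with C-MYC. The conditions did not overlap, but the EV libraries lay 2.81 times apart. The log2 fold change was -3.54 (SE 0.52) in BCR-ABL1 against EV and -1.66 (SE 0.48) in C-MYC against EV. Without EV replicate 2 these values were -2.61 and -0.73.

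Cd14 encodes the receptor that hands lipopolysaccharide to Toll-like receptor 4. It was at 35.5 and 13.2 CPM in EV, against 1.75 and 1.62 with BCR-ABL1 and 6.16 and 10.01 with C-MYC. The conditions did not overlap, and EV replicate 1 stood far above EV replicate 2. The log2 fold change was -3.85 (SE 0.51) in BCR-ABL1 against EV and -1.59 (SE 0.44) in C-MYC against EV. Without EV replicate 1 they were -2.96 and -0.70.

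Msr1, a scavenger receptor for modified lipoproteins, was at 20.99 and 30.6 CPM in EV, against 3.98 and 5.48 with BCR-ABL1 and 12.2 and 27.4 with C-MYC. Mrc1, the mannose receptor, was at 13.2 and 36.8 CPM in EV, against 5.12 and 7.73 with BCR-ABL1 and 15.2 and 33.9 with C-MYC. For both receptors EV and C-MYC overlapped, and the BCR-ABL1 libraries lay below all others. In BCR-ABL1 against EV the log2 fold change was -2.44 (SE 0.40) for Msr1 and -1.96 (SE 0.54) for Mrc1, the latter -1.03 without EV replicate 2. In C-MYC against EV it was -0.38 (SE 0.37) for Msr1 and -0.03 (SE 0.51) for Mrc1. The Mrc1 value moved to 0.89 without EV replicate 2 and to -0.71 without C-MYC replicate 2, and the Msr1 value to -1.07 without C-MYC replicate 2. In BCR-ABL1 against C-MYC the difference was -2.06 (SE 0.40) for Msr1 and -1.93 (SE 0.54) for Mrc1, or -1.36 and -1.24 without C-MYC replicate 2.

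**Figure D3:**
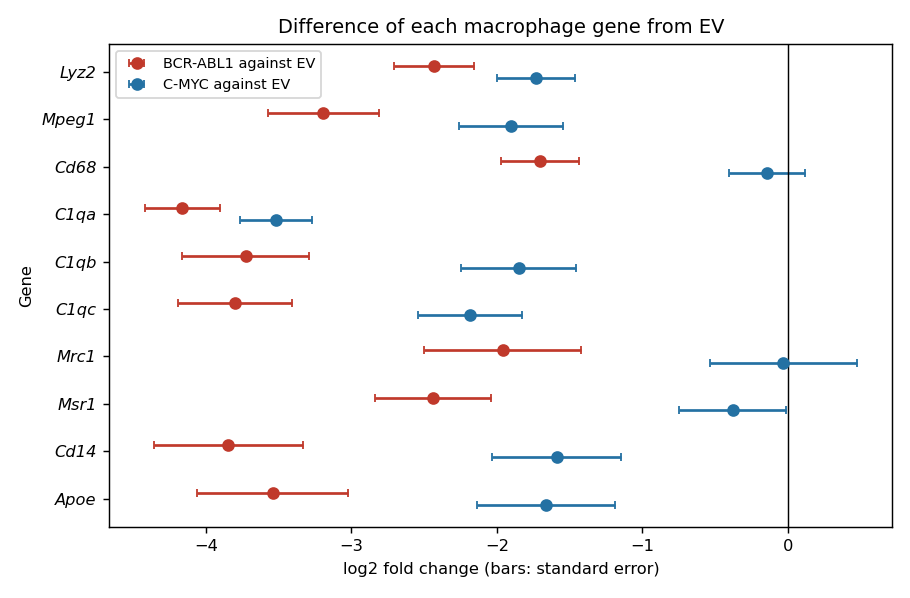
Log2 fold change of each gene in BCR-ABL1 and in C-MYC against EV, with standard errors as bars. The values ranged from -4.16 to -1.70 in BCR-ABL1 and from -3.52 to -0.03 in C-MYC, and both comparisons share the EV libraries.

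Over the 10 genes the median log2 fold change was -3.37 in BCR-ABL1 against EV, -1.70 in C-MYC against EV and -1.75 in BCR-ABL1 against C-MYC. Over all 12786 genes it was 0.00, -0.08 and 0.00. All 10 genes lay below EV without overlap in BCR-ABL1, as 29.7% of all tested genes did. In C-MYC 7 lay below EV without overlap, against 39.1% of all tested genes, and 3 overlapped. All 10 lay lower in BCR-ABL1 than in C-MYC without overlap, against 34.5% of all tested genes. The genes were chosen on these libraries, so nothing is read from these counts.

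Levels of different genes were compared as CPM per kilobase of annotated exon. Lyz2 was first in every condition, with means on this scale of 451 in EV and of 83.6 and 136 with BCR-ABL1 and C-MYC, and its libraries lay above those of every other gene. Apoe was second in every condition, and its range overlapped with that of the gene ranked next, C1qb in EV and Cd68 in both oncogene cultures. Cd68 went from the sixth place in EV, at 38.1 CPM per kilobase, to the third in BCR-ABL1 (11.7) and C-MYC (34.6). C1qa went from the fourth place in EV (59.8) to the sixth in BCR-ABL1 (3.33) and the seventh in C-MYC (5.21), where its range overlapped with both neighbours. Msr1, Mrc1 and Cd14 held the last 3 places throughout, and in C-MYC neighbours from C1qb down to Msr1 overlapped. The deposited FPKM values gave Apoe a lower and Msr1 a higher place, at 0.193 and 4.44 times the ratio of FPKM to CPM per kilobase of a typical gene.

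Replicates differed in the same direction for most of the genes. Replicate 2 stood above replicate 1 for 9 genes in both EV and BCR-ABL1 and for 10 with C-MYC, with ratios up to 2.81, 1.66 and 2.36. Cd14 was the exception in EV, at a ratio of 0.372, and in BCR-ABL1, at 0.924. The 14 neutrophil genes in the table, which include the granule genes Mpo and Elane, summed to 1308 and 439 CPM in the EV replicates, the opposite order. Whether the RNA of such cells had a part in the level of Lyz2 or Cd14 was not tested.

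Other genes of mononuclear phagocytes, none of them among the 10, were tested with edgeR's quasi-likelihood test and Benjamini-Hochberg adjustment over all 12786 genes. This list and those below were chosen with earlier results of these data known. Their counts are therefore a description and no independent support. Some listed genes also entered the test through their EV counts alone, and for them a fall was the only call open. In BCR-ABL1 against EV, 24 of the 31 tested fell and 0 rose, where 12.0% of all genes fell and 5.08% rose. Their median log2 fold change was -3.08. In C-MYC against EV, 19 fell and 1 rose (24.5% and 18.6% of all genes), with a median of -1.54. In BCR-ABL1 against C-MYC, 12 were lower and 1 was higher (11.5% and 11.9% of all genes), with a median of -1.43. That last count of 13 went down to 4 without BCR-ABL1 replicate 1 and to 6 without C-MYC replicate 2. Timd4 and Vsig4, markers of resident macrophages, had 0 counts in all libraries, and Cd163 and Lyve1 were too low to test.

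Csf1r, the receptor of the growth factor that macrophages need, and Adgre1, which encodes the F4/80 antigen, were chosen after their values were seen. Csf1r stood at 82.5 and 145 CPM in EV, against 10.6 and 12.0 with BCR-ABL1 and 29.9 and 54.9 with C-MYC. It fell in BCR-ABL1 (log2 fold change -3.32, SE 0.36, adjusted p = 0.00137) and in C-MYC (-1.42, SE 0.33, adjusted p = 0.0105, lost without C-MYC replicate 1) against EV. Adgre1 stood at 27.1 and 59.9 CPM in EV, against 3.13 and 5.61 with BCR-ABL1 and 9.42 and 22.9 with C-MYC. It fell by 3.31 on the log2 scale in BCR-ABL1 against EV (adjusted p = 0.00651). Its adjusted p in C-MYC against EV, 0.0476, passed the threshold narrowly and was lost under 9 of 14 alternatives.

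The largest falls in the list included Ccr2, the receptor that draws monocytes from the blood, at 16.6 and 35.9 CPM in EV and 0.552 to 1.75 in the oncogene cultures. It fell in BCR-ABL1 (-4.77, adjusted p = 0.00176) and in C-MYC (-4.50, adjusted p = 0.000784). Cx3cr1, the fractalkine receptor, went from 1.36 and 4.68 CPM in EV to 0.138 CPM or less in every other library, where it had 3 counts at most. Fcgr1, an antibody receptor, fell in BCR-ABL1 (-4.78, SE 0.84, adjusted p = 0.00863, lost without BCR-ABL1 replicate 1), while in C-MYC its log2 fold change was -1.18 (SE 0.64, adjusted p = 0.169). Siglec1, a sialic acid receptor, had the same pattern (-4.39, adjusted p = 0.0241, and -1.12, adjusted p = 0.285), with the first call lost under 4 of 14 alternatives. Gpnmb, a lysosomal glycoprotein named after its values were seen, was the gene that rose in C-MYC, from 238 and 423 CPM in EV to 509 and 847 (1.04, SE 0.33, adjusted p = 0.0367). That call was lost with DESeq2, with limma on FPKM, without EV replicate 1 and without C-MYC replicate 2. Cybb, the NADPH oxidase subunit, also named after its values were seen, was the gene higher in BCR-ABL1 than in C-MYC (1.72, SE 0.27, adjusted p = 0.00501).

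**Figure D4:**
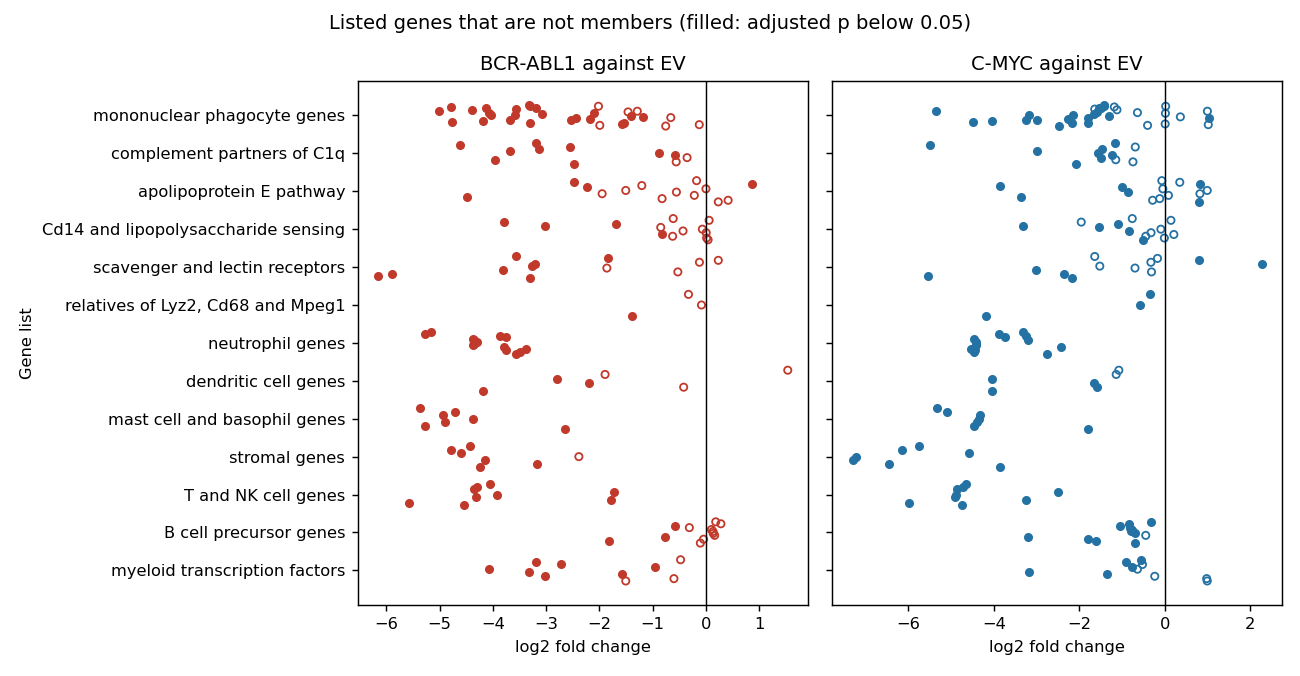
Log2 fold change against EV of the tested genes of 13 lists, in BCR-ABL1 (left) and C-MYC (right). Points are filled where the adjusted p was below 0.05. The erythroid list, of which 1 gene was tested and 0 called, is not drawn. Of the mononuclear phagocyte genes 24 of 31 fell in BCR-ABL1 and 19 in C-MYC, and genes with 3 or fewer counts in a condition are drawn at a fitted value that depends on the prior count.

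Among partners of C1q in the complement pathway, 9 of 11 tested genes fell and 0 rose in BCR-ABL1 (12.0% and 5.08% of all genes). In C-MYC 8 fell and 0 rose (24.5% and 18.6% of all genes). The medians were -2.56 and -1.47. The count of 9 went down to 5 without BCR-ABL1 replicate 1. C3, the central complement protein, went from 73.7 and 48.4 CPM in EV to 2.18 and 2.78 in BCR-ABL1 and 1.38 or less in C-MYC. It fell in both oncogene cultures, with log2 fold changes of -4.61 (adjusted p = 0.000354) and -5.50 (adjusted p = 0.000156). Itgam, a chain of complement receptor 3 that also marks myeloid cells, fell in both (-3.68, adjusted p = 0.000591, and -3.00, adjusted p = 0.000379). C1ra, a protease that binds C1q, was at 2.20 and 1.92 CPM in EV, against 0.142 and 0.291 with BCR-ABL1 and 0.919 and 0.898 with C-MYC, and it fell in BCR-ABL1 (-3.19, SE 0.45, adjusted p = 0.00361). Between BCR-ABL1 and C-MYC, 3 of these genes were lower (C1ra, C3ar1 and C5ar1) and 3 higher (Cd55, Cd93 and Itgb2), with a median of -0.40, and these 6 calls went down to 1 or 2 without BCR-ABL1 replicate 1, BCR-ABL1 replicate 2 or C-MYC replicate 2.

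In the apolipoprotein E pathway, 3 of 14 tested genes fell and 1 rose in BCR-ABL1 (12.0% and 5.08% of all genes). In C-MYC 4 fell and 2 rose (24.5% and 18.6% of all genes), which is near those shares and not read as a result about the pathway. The medians were -0.69 and -0.06. The 4 calls in BCR-ABL1 became 2 without either BCR-ABL1 library and 7 with a term for the replicate number. Pltp, which transfers phospholipids between lipoproteins, went from 4.11 and 8.99 CPM in EV to 0.284 and 0.291 with BCR-ABL1 and 0.644 and 0.629 with C-MYC. It fell in both oncogene cultures, with log2 fold changes of -4.49 (adjusted p = 0.00153) and -3.36 (adjusted p = 0.00117). Abca1, the transporter that loads cholesterol onto apolipoproteins, stood at 21.6 and 28.7 CPM in EV and fell to 5.93 and 4.82 in BCR-ABL1 (-2.23, SE 0.24, adjusted p = 0.00129). It fell to 10.8 and 14.3 CPM in C-MYC (adjusted p = 0.00902), a call lost without C-MYC replicate 1. Lrp1, a receptor for apolipoprotein E, had a log2 fold change of -2.47 (SE 0.66, adjusted p = 0.0403) in BCR-ABL1, a call lost under 6 of 14 alternatives. In C-MYC its log2 fold change was 0.35 (SE 0.61, adjusted p = 0.677). Vldlr, another such receptor, had 2 and 0 counts in C-MYC. The fourth gene that fell in C-MYC was the nuclear receptor Nr1h2, and those that rose there were Lrp8 and Scarb1. Lrp8, a receptor of the same family named after its values were seen, was the gene that rose in BCR-ABL1 (0.87, SE 0.19, adjusted p = 0.0204, lost under 4 of 14 alternatives). Between BCR-ABL1 and C-MYC, 5 were lower (Abca1, Lpl, Lrp1, Nr1h3 and Scarb1) and 0 higher, and these calls went down to 0 to 2 when any BCR-ABL1 or C-MYC library was left out.

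Among the genes that work with Cd14, 4 of 13 fell and 0 rose in BCR-ABL1 (12.0% and 5.08% of all genes). In C-MYC 5 fell and 0 rose (24.5% and 18.6% of all genes). The medians were -0.61 and -0.50. The counts went down to 1 without either BCR-ABL1 library and to 3 without C-MYC replicate 2. The Toll-like receptor Tlr2 stood at 28.9 and 19.1 CPM in EV, against 6.97 and 7.94 with BCR-ABL1 and 9.56 and 12.7 with C-MYC. It fell in both oncogene cultures, with log2 fold changes of -1.68 (adjusted p = 0.00466) and -1.11 (adjusted p = 0.00899), the latter lost without C-MYC replicate 1. Its partner Tlr1 fell in both (-3.02, adjusted p = 0.0114, lost without either BCR-ABL1 library, and -3.33, adjusted p = 0.00342). Tlr6, the alternative partner, fell in C-MYC (-1.54, adjusted p = 0.00401) and had a log2 fold change of -0.85 in BCR-ABL1 (adjusted p = 0.0739). Lbp, which brings lipopolysaccharide to Cd14, had 1 and 2 counts in BCR-ABL1. The other genes that fell were the adaptor Tirap in BCR-ABL1, and the adaptor Ticam1 and the signalling protein Traf6 in C-MYC. The Tirap call was lost under 8 of 14 alternatives, and those of Ticam1 and Traf6 under 1 of 14 each. Tlr4 itself, named after its values were seen, had log2 fold changes of -0.61 (SE 0.31, adjusted p = 0.227) and -0.76 (SE 0.31, adjusted p = 0.0827). Between BCR-ABL1 and C-MYC, Tirap was lower and Traf6 higher, and the 2 calls were 0 or 1 when any of these libraries was left out.

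Among scavenger and lectin receptors other than Msr1 and Mrc1, 8 of 12 tested genes fell and 0 rose in BCR-ABL1. Of all genes, 12.0% fell and 5.08% rose there. In C-MYC 4 fell and 2 rose, near the 24.5% and 18.6% of all genes. The medians were -3.24 and -1.11. The count of 8 went down to 3 without BCR-ABL1 replicate 1 and to 4 without BCR-ABL1 replicate 2. Mgl2, a galactose-type lectin, went from 9.86 and 9.78 CPM in EV to 0.142 and 0.125 with BCR-ABL1 and 0 and 0.404 with C-MYC. It fell in both oncogene cultures, with log2 fold changes of -6.15 (adjusted p = 0.00174) and -5.55 (adjusted p = 0.00079). Its neighbour in sequence, Clec10a, had 0 and 2 counts in BCR-ABL1. Mrc2, the relative of Mrc1 that takes up collagen, fell in both (-3.81, adjusted p = 0.00536, lost without BCR-ABL1 replicate 2, and -3.02, adjusted p = 0.00373), while Mrc1 itself overlapped between EV and C-MYC. Marco, a scavenger receptor of the same class as Msr1, fell in BCR-ABL1 (-3.57, SE 0.78, adjusted p = 0.0186, lost under 3 of 13 alternatives). The genes that rose in C-MYC, named after their values were seen, were Colec12, a scavenger receptor with a collagen-like stalk, and Scarb1, the receptor for high-density lipoprotein. Colec12 went from 0.982 and 1.13 CPM in EV to 3.72 and 6.51 (2.27, SE 0.52, adjusted p = 0.0104, lost without C-MYC replicate 2). Scarb1 went from 50.2 and 52.9 CPM to 96.2 and 81.9 (0.79, SE 0.13, adjusted p = 0.00229). Between BCR-ABL1 and C-MYC, 3 were lower (Cd36, Colec12 and Scarb1) and 0 higher, and with 1 library left out these calls ranged from 1, without BCR-ABL1 replicate 1, to 6, without EV replicate 2, with 5 without EV replicate 1.

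Relatives of Lyz2, Cd68 and Mpeg1 were few, with 3 of 7 tested. Lamp1 and Lamp2, lysosomal membrane proteins of the family of Cd68, had log2 fold changes of -0.33 (SE 0.10, adjusted p = 0.061) and -0.08 (SE 0.12, adjusted p = 0.689) in BCR-ABL1. In C-MYC they were -0.35 (SE 0.10, adjusted p = 0.0228) and -0.59 (SE 0.12, adjusted p = 0.00619). The Lamp1 call was lost under 6 of 14 alternatives and the Lamp2 call under 1 of 14. Between BCR-ABL1 and C-MYC the Lamp1 difference was 0.03 (SE 0.10). Cd68 went the other way round from Lamp2, lower in BCR-ABL1 and within the range of EV in C-MYC. Prf1, the perforin of cytotoxic lymphocytes and a relative of Mpeg1, fell in C-MYC (-4.18, adjusted p = 0.000697). Its adjusted p in BCR-ABL1, 0.0409, was lost under 7 of 13 alternatives. Prf1 and Lamp2 were higher in BCR-ABL1 than in C-MYC, and at least 1 of these calls was lost when any BCR-ABL1 or C-MYC library was left out.

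Transcription factors of the myeloid lineage fell in 7 of 10 cases in BCR-ABL1 (12.0% of all genes) and in 5 in C-MYC (24.5% of all genes). None rose (5.08% and 18.6% of all genes), and the medians were -2.15 and -0.60. The 5 in C-MYC were Cebpa, Irf8, Klf4, Maf and Spi1, and 3 calls were left without BCR-ABL1 replicate 2, C-MYC replicate 1 or C-MYC replicate 2. Between BCR-ABL1 and C-MYC 6 were lower and 0 higher, with 2 left without BCR-ABL1 replicate 1 or C-MYC replicate 2. Maf, a factor found in macrophages, fell in both (-3.31, adjusted p = 0.000367, and -3.17, adjusted p = 0.000177). Cebpa, a factor of granulocyte and monocyte precursors, fell in BCR-ABL1 (-3.18, adjusted p = 0.00096) and in C-MYC (-0.90, adjusted p = 0.0321), the latter lost under 5 alternatives. Tfec, a factor of the MITF family found in macrophages, fell in BCR-ABL1 (-3.02, adjusted p = 0.00879), a call lost without BCR-ABL1 replicate 1, and had a log2 fold change of -0.24 (adjusted p = 0.691) in C-MYC. Spi1, the gene of PU.1, which B cells also use, was named after its values were seen. It stood at 107 and 81.0 CPM in EV, against 70.3 and 64.7 with BCR-ABL1 and 68.4 and 59.0 with C-MYC, with log2 fold changes of -0.47 (SE 0.16, adjusted p = 0.0823) and -0.56 (SE 0.16, adjusted p = 0.0243). The latter was lost under 5 of 14 alternatives.

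Where a list is given with 0 rises, edgeR at an unadjusted p below 0.05 found 1 rise in BCR-ABL1 over 13 such lists and 0 in C-MYC over 11, and DESeq2 called 1 and 0. Some genes, such as Itgam, Marco and Scarb1, stand in more than 1 list. For the counts of each list between BCR-ABL1 and C-MYC, the shares of all genes were 11.5% lower and 11.9% higher.

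The summed levels of neutrophil, T and NK cell, mast cell and basophil, and stromal genes were also lower than in EV. In C-MYC against EV their median log2 fold changes were -4.15, -4.75, -4.39 and -6.14, against -1.70 for the 10 macrophage genes. Of all genes, 12.0% fell in BCR-ABL1 and 24.5% in C-MYC. All 14 tested neutrophil genes fell in BCR-ABL1 and in C-MYC, from a summed 439 to 1308 CPM in EV to 37.1 to 61.1 in BCR-ABL1 and 44.1 to 55.0 in C-MYC. All 9 T and NK cell genes fell in both, from 105 to 142 CPM to at most 9.64 and 6.20. All 7 tested mast cell and basophil genes fell in both, from 140 to 175 CPM to 8.73 to 14.2 and 17.2 to 20.7. Of the 7 stromal genes tested, 6 fell in BCR-ABL1 and 7 in C-MYC, from 128 to 190 CPM to 8.06 to 8.68 and 2.25 to 3.50. Cxcl12 and Pdgfrb had 0 counts in both C-MYC libraries, at least 6.03-fold and 6.42-fold lower than EV with a floor of 3 counts per library. The median log2 fold change of the stromal genes in C-MYC was -6.14 as fitted and -4.58 with these genes at their bound. Some genes of these lists entered the test through their EV counts alone, so a fall was the only call open to them. Ms4a2, for example, had 71 and 123 counts in EV and 2 to 7 in the other libraries. With a mean of at least 50 counts, which leaves fewer genes, 9 neutrophil genes were called in BCR-ABL1 and 4 stromal genes in C-MYC. Of the 6 dendritic cell genes tested, Batf3, Ccr9 and Itgax fell in BCR-ABL1 and C-MYC, Ccr7 fell in C-MYC, and Flt3 was higher in BCR-ABL1 than in C-MYC. Flt3, a growth factor receptor of early precursors, stood at 3.18 and 1.76 CPM in EV, against 9.58 and 4.74 with BCR-ABL1 and 1.47 and 0.853 with C-MYC. Its log2 fold change in BCR-ABL1 against EV was 1.54 (SE 0.45, adjusted p = 0.0549 with edgeR). The 3 calls in BCR-ABL1 became 1 without either BCR-ABL1 library and 5 without EV replicate 1, and the 4 in C-MYC became 2 without C-MYC replicate 2. Erythroid genes were near the floor, with 5 of 8 at 0 in all libraries and a summed level of 0.920 to 1.75 CPM. Of the B cell precursor genes, Cd79b, Il7r and Rag1 fell in BCR-ABL1, with 1 call left without either BCR-ABL1 library, and 11 of 12 fell in C-MYC.

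**Figure D5:**
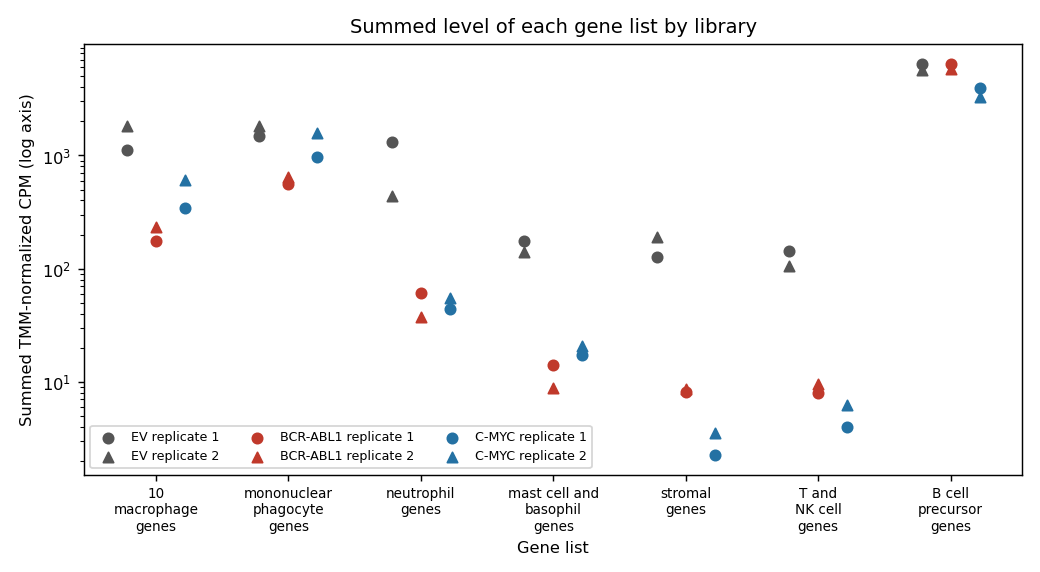
Summed TMM-normalized CPM (log axis) of the 10 macrophage genes and of 6 gene lists in each library. The macrophage genes and the mononuclear phagocyte genes were higher in C-MYC than in BCR-ABL1, while the neutrophil genes ranged from 37.1 to 61.1 CPM in both and the stromal genes were lower in C-MYC. Gpnmb alone held 509 and 847 of the 964 and 1571 CPM of the mononuclear phagocyte genes in C-MYC. In BCR-ABL1 it held 168 and 251 of 557 and 639 CPM.

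Between the oncogenes the lists did not move alike. In BCR-ABL1 against C-MYC the median log2 fold change was -1.75 for the 10 macrophage genes and -1.43 for the other phagocyte genes. It was 0.02 for neutrophil genes, 0.60 for T and NK cell genes, -0.51 for mast cell and basophil genes, 1.36 for stromal genes and 0.73 for B cell precursor genes. Of these lists, 1 of 14 neutrophil genes passed the test (Mmp8, lower in BCR-ABL1), and 0 did when any BCR-ABL1 or C-MYC library was left out. So did 3 of 7 stromal genes (Col1a1, Col1a2 and Sparc) and 9 of 12 B cell precursor genes, all higher in BCR-ABL1, with 1 stromal call left when any BCR-ABL1 or C-MYC library was left out. Of 9 T and NK cell genes and 7 mast cell and basophil genes, 0 passed the test with edgeR, 0 with DESeq2, and 2 and 1 had an unadjusted p below 0.05. The 2 were Cd8a and Klrb1c, higher in BCR-ABL1. With only the 4 libraries compared, 1 T and NK cell gene, 1 mast cell and basophil gene and 2 neutrophil genes were called. The difference between lists was not tested, and the part of other cells in the levels of the 10 genes was not tested.

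Among 10613 genes outside the 10 with a mean of at least 50 counts, the pattern across the 6 libraries was nearest to the mean pattern of the 10 for genes that include Tbxas1, C5ar1, Igsf6 and Hk3. Likeness was the root mean square difference of centred log2 CPM, at 0.0976 for Tbxas1, 0.120 for C5ar1, 0.132 for Igsf6 and 0.163 for Hk3, with a median of 1.31 over all candidates. The 10 genes themselves lay between 0.279 for Mpeg1 and 0.834 for C1qa from their own mean. Tbxas1, which encodes thromboxane synthase, was at 9.21 and 16.1 CPM in EV, against 1.33 and 1.62 with BCR-ABL1 and 3.54 and 6.38 with C-MYC. C5ar1, the receptor for the complement fragment C5a, was at 14.2 and 17.3 CPM in EV, against 1.56 and 1.99 with BCR-ABL1 and 4.50 and 6.83 with C-MYC. Hk3, a hexokinase of myeloid cells, was at 20.99 and 28.1 CPM in EV, against 2.42 and 3.91 with BCR-ABL1 and 6.34 and 15.1 with C-MYC.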

How the data were processed

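RNA-seq of 6 libraries was analysed, 2 for each of EV, BCR-ABL1 and C-MYC, grouped by the sample labels. The replicates are duplicate experiments per the methods. The ChIP-seq samples of the series were not analysed here. The authors aligned poly(A) reads to GRCm38/mm10 with STAR 2.5.0 and UCSC known genes and deposited unnormalized counts per gene symbol. The deposited FPKM values were calculated by the authors with StringTie 1.3.0. Versions are those of the submitters' processing notes. The program that counted reads and its strand setting are not given in the sources used here, so counts of paralogs and of overlapping or antisense genes are uncertain.

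The counts were fitted with edgeR 4.0.16 (R 4.3.3), using 1 model for the 6 libraries with no covariate. All conditions share the estimate of the spread, and the test used a quasi-likelihood dispersion for each gene. The common biological coefficient of variation, a summary over genes, was 0.151. filterByExpr kept 12786 of 24421 genes, library sizes were scaled by TMM, and the quasi-likelihood test was adjusted by Benjamini-Hochberg, with a call at an adjusted p below 0.05. The standard error is the absolute log2 fold change divided by the square root of F. A count of 0 allows up to 3 counts. Exon lengths and positions are from GENCODE on GRCm38, 1-based. Promoters are from RefSeq on GRCm38.p6, with motifs searched on both strands. DESeq2 1.42.0, limma 3.58.1 on log2 FPKM with a pseudocount of 1 or 0.1, other filters, fits restricted to the 4 libraries compared, a replicate term and leaving out each library were the alternatives. Python 3.11.15 with numpy 2.4.6, pandas 2.3.3 and matplotlib 3.10.9 was used.

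The 10 genes and the gene lists were chosen with earlier results of these data known. Genes named from a list are up to 4 with an adjusted p below 0.05 in BCR-ABL1 or C-MYC against EV and the largest absolute log2 fold change. The 5 genes most like the 10 were taken by the root mean square difference of centred log2 CPM (prior count 2). Exceptions are said to be named after their values were seen. Some genes that these rules name are not reported here.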

Additional observations from a re-analysis of the deposited data

How the results depend on the processing

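With limma on log2(FPKM + 1), the log2 fold change of Cd14 was -2.83 in BCR-ABL1 against EV and -1.44 in BCR-ABL1 against C-MYC. Leaving out 1 library also moved single genes, as for Apoe in C-MYC against EV, at -1.66 with all libraries and -0.73 without EV replicate 2. Signs changed in C-MYC against EV alone, for Cd68, Mrc1 and Msr1, whose values lay near 0. The median over the 10 genes ranged, with 1 library left out, from -3.63 to -2.86 in BCR-ABL1 against EV, from -2.13 to -1.35 in C-MYC against EV and from -2.11 to -1.30 in BCR-ABL1 against C-MYC. Over all genes, 2180 were called in BCR-ABL1 against EV, 5515 in C-MYC against EV and 2991 in BCR-ABL1 against C-MYC. With a mean of at least 50 counts, which leaves fewer genes, 1336 were called in BCR-ABL1 against EV, and with only the 4 libraries compared 4538 were called in BCR-ABL1 against C-MYC, for which the cause was not tested. With 1 library left out the counts ranged from 665 (without BCR-ABL1 replicate 2; 714 without BCR-ABL1 replicate 1) to 2729, from 3329 (without C-MYC replicate 1; 3563 without C-MYC replicate 2) to 6077, and from 618 (without BCR-ABL1 replicate 1) to 4519 (without EV replicate 2). In the last comparison every library moved the count by over 1.5 times, with 4500 without EV replicate 1, 1130 without BCR-ABL1 replicate 2, 1291 without C-MYC replicate 1 and 1038 without C-MYC replicate 2. A condition with 1 library left is assumed to vary like the others. The 13 mononuclear phagocyte genes called between BCR-ABL1 and C-MYC ranged from 4 to 19 with 1 library left out, while 17 to 27 were called in BCR-ABL1 against EV and 17 to 22 in C-MYC against EV. Among listed genes called in the reported fit, 32 of 94 lost the call in BCR-ABL1 against EV without BCR-ABL1 replicate 1, 19 of 101 in C-MYC against EV without C-MYC replicate 1, and 33 of 48 in BCR-ABL1 against C-MYC without BCR-ABL1 replicate 1. None of them changed sign under any alternative run.

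The groups share replicate numbers, and the labels do not say that a number marks a batch. Deviations of same-numbered libraries from their condition's mean correlated across 12786 genes at 0.273 between EV and BCR-ABL1, 0.236 between EV and C-MYC and 0.204 between BCR-ABL1 and C-MYC. With a replicate block, 21 mononuclear phagocyte genes were called in BCR-ABL1 against C-MYC, 28 in BCR-ABL1 against EV and 24 in C-MYC against EV, and over all genes 4278, 3224 and 6631. Of the scavenger and lectin receptors, 7 were called in BCR-ABL1 against C-MYC with the block, against 3 without it. Pooled over genes within each condition, replicates varied more than counting error alone allows, so depth alone does not set the precision. For genes with few counts, such as Cd14 with 37 and 39 in the BCR-ABL1 replicates, this pooled measure does not show what limits precision. No sample could be examined as an outlier within its group.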
